A study of Mus musculus with 26 samples.

Results

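Immediate early genes answer growth factors, serum and other stimuli within minutes and without new protein synthesis. The 10 genes described here are Fos, Fosb, Jun, Egr1, Egr2, Egr3, Ier2, Ier3, Atf3 and Myc, a set chosen by name out of 21911 protein-coding genes of the mouse annotation. The question was whether these serum and ERK response genes differ between embryonic stem cells in LIF and in retinoic acid (RA) at 4 h. Of the 10 genes, 2 were listed in the deposited RNA-seq table and 9 had an accessible promoter in both states. None had a promoter that changed past 1.5-fold, and none lay within 100 kb of an enhancer that differed between the states. Of all protein-coding genes, 9.05% were listed, 66.4% had such a promoter and 4.54% such an enhancer. Of all promoters, 1.37% passed that fold upward and 1.28% downward. With 10 genes, finding none is close to these last shares.

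The cells were E14 mouse embryonic stem cells, grown without feeders, a line whose pluripotency depends on leukemia inhibitory factor (LIF). All cultures were plated, grown for 48 h in all, washed with PBS and given fresh medium with 17% serum for the last 4 h, so the LIF cells had also received new serum 4 h before harvest. One state then had LIF (mESC+) and the other had 1 µM RA without LIF (mESC-), and the withdrawal of LIF and the addition of RA cannot be told apart. RNA-seq had 3 libraries per state, ATAC-seq 1, and each of the 3 histone marks behind the enhancer predictions 1 with 1 input. No level per RNA library was used and the other assays have no replicates, so no difference below carries a test.

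In cells that are stimulated, the kinase ERK phosphorylates ternary complex factors such as ELK1, which sit with serum response factor (SRF) on a short sequence called the CArG box. SRF also works with myocardin-related factors, and CREB acts through the cAMP response element. Fos, Fosb and Jun encode subunits of the AP-1 transcription factor, Egr1, Egr2 and Egr3 encode zinc finger factors, Atf3 encodes a stress-induced bZIP factor, and Myc encodes a bHLH factor that promotes growth. Ier2 encodes a nuclear protein, and Ier3 a small protein tied to survival and to ERK signaling. LIF itself acts through STAT3 and also activates ERK, and in embryonic stem cells ERK signaling favors exit from pluripotency.

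Some sequences known from that pathway lay inside accessible chromatin in both states, among them the CArG boxes, while others described below lay outside the peaks. A CArG box (CC, 6 bases of A or T, GG) was found within 1 kb of the main start of 5 of the 10 genes, namely Fos, Fosb, Egr1, Egr2 and Egr3, against 9.26% of 21911 promoters of that length. All 6 matches lay in peaks of both ATAC-seq lists. For CArG boxes at the promoters of other genes, the share inside peaks was not counted. In 4 of these genes the box was followed, 7 bases later, by CGTCA, a partial cAMP response element. They are shown because they are so alike, each 22 bases from GRCm38 on the gene's strand, with the CArG box and CGTCA in capitals.
Fos, chr12:85473581-85473602, plus strand, first base 309 bp upstream of the start: CCATATTAGGacatctgCGTCA
Fosb, chr7:19310296-19310317, minus strand, 266 bp upstream: CCTTATATGGctaattgCGTCA
Egr2, chr10:67537797-67537818, plus strand, 72 bp upstream: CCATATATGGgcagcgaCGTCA
Egr3, chr14:70076843-70076864, plus strand, 471 bp upstream: CCATATATGGgcagctaCGTCA
Egr2 and Egr3 shared 21 of the 22 bases, and the other pairs of genes shared 15 to 17. By the search itself, CC, GG and CGTCA are the same in all 4, and 6 more bases can only be A or T. Counts of 15 to 17 are therefore in large part set by the search. The pair was noticed in these sequences and then counted elsewhere, so its presence in the 4 genes is a description. Among 2029 promoters with a CArG box at the main start, 7 held the pair on either strand (0.345%), and the 3 genes besides the 4 were Dusp5, which encodes a phosphatase of ERK, the integrin gene Itgb1 and the kinase gene Sik3. Of those 3, Dusp5 was listed in the RNA-seq table. Egr2 had another CArG box 375 bp upstream without CGTCA at that spacing.

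**Figure D1:**
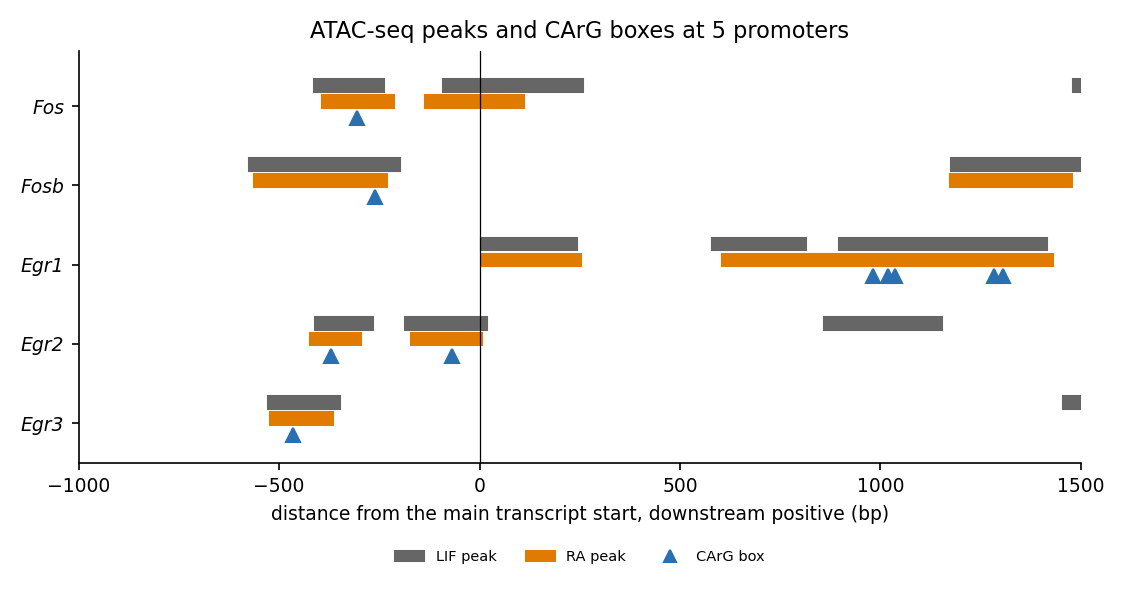
Position of ATAC-seq peaks in LIF (grey bars) and RA (orange bars) and of CArG boxes (blue triangles) at Fos, Fosb, Egr1, Egr2 and Egr3, in base pairs from the main transcript start. Each CArG box lies under a peak of both lists, and LIF peaks with no RA partner appear downstream of the starts of Fos, Egr2 and Egr3.

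For Fos, the whole accessible region around the box is given because its peak stood apart from that at the start. It covers chr12:85473476-85473677 (GRCm38, plus strand), from 414 to 213 bp upstream of the start, with the CArG box in capitals.
Fos upstream region: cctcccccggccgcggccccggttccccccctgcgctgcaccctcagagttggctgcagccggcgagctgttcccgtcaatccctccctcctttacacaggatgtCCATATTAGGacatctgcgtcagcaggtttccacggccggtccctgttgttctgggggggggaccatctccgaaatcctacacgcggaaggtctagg
The peak summit lay 324 bp upstream in LIF and 307 bp upstream in RA, and the RA summit was thus inside the 10 bases of the box. The peak at the start of Ier2 held the full palindromic cAMP response element, TGACGTCA, 45 bp upstream. Its part upstream of the start is chr8:84662853-84662955 on the minus strand, with the element in capitals.
Ier2 promoter: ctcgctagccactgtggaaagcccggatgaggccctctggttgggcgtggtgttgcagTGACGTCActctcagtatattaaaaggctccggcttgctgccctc
The element occurred in 4.02% of all promoters. Ier3 is shown as the listed gene without any of the motifs searched in its peak, at chr17:35821431-35821683 on the plus strand, up to the base before the start.
Ier3 promoter: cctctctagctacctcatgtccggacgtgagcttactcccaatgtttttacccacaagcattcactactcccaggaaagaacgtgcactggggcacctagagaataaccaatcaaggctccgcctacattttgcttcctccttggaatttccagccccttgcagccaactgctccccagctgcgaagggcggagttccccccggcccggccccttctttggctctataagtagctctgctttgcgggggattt

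Other letters were rarer at these genes. A match to the EGR site GCGGGGGCG lay 44 bp upstream of Fosb, outside the peaks, and it occurred in 9.72% of all promoters. An ETS site, CCGGAAGT, lay 594 bp upstream of Jun outside the peaks (8.63% of all promoters). The E-box CACGTG, the site of MYC, occurred 688 bp downstream of the start of Ier2 and 453 bp upstream of that of Ier3, both outside peaks (27.5%). No AP-1 site was found within 1 kb of any of the 10 main starts (24.2%), nor was a direct repeat of the RA receptor type with a spacing of 2 or 5 bases (1.78%). At other annotated starts, Atf3 held an AP-1 site 549 bp downstream of its inner start, outside the peaks, and Egr2 held 3 E-boxes near its outer starts. Of these 3, the E-box 3 bp upstream of the outermost start lay in a LIF peak but in no RA peak, and the other two lay outside peaks. These are matches of letters, and no match says only that these letters are not in the window.

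In the RNA-seq table, which lists 2189 genes of the authors' comparison of RA with LIF, 2 of the 10 genes were present, or 20%. Of all protein-coding genes 9.05% were listed, and of those with a promoter peak in both states 12.1%. With 10 genes, the count of 2 is close to these shares. Fos (ENSMUSG00000021250) had a mean of 76.5 normalized counts over all 6 libraries, and Ier3 (ENSMUSG00000003541) of 104, against a median of 626 over the listed genes. Per kilobase of exon, the authors' means came to 32.5 for Fos and 91.8 for Ier3, against a median of 138, at percentiles 22.5 and 41.5 of the listed genes, so both were below the median. These means pool both states, and the columns for the direction and size of the change were not used. Fosb, Jun, Egr1, Egr2, Egr3, Ier2, Atf3 and Myc were not listed, and their RNA levels were not analysed here.

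Of a further 34 immediate early genes, 18 were in the table (52.9%), against 12.1% of protein-coding genes with a promoter peak in both states. The list of 34 was chosen with earlier results of these data known, so this share is a description. Among the 18 were the AP-1 genes Junb and Jund, the pluripotency factor gene Klf4 and the RNA decay genes Zfp36 and Zfp36l1. The antiapoptotic gene Mcl1 and the kinase genes Sgk1 and Plk3 were listed as well. The authors' mean per kilobase of exon was 6029 for Mcl1, 2117 for Sgk1, 934 for Klf4 and 750 for Plk3, and it was lowest for Ier5 (20.9) and Nfkbiz (26.7). Junb and Jund stood at 118 and 141 per kilobase. Fos and Ier3 thus lay toward the lower end of the listed immediate early genes. Of 18 upstream regulators of the pathway, 3 were listed (16.7%, beside the same 12.1%). They were the ternary complex factor gene Elk3, the kinase gene Braf and Stat3. Srf, Elk1 and Mapk3 were not.

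ATAC-seq marks open chromatin by the insertion of a transposase. The LIF list held 163484 peaks and the RA list 141465, with median fold enrichments over background of 6.69 and 6.52. A promoter peak was one within 1 kb of the start of the main transcript. Such a peak was present in both lists for 9 of the 10 genes, where 66.4% of protein-coding genes had one. Atf3 had none at its outer start, but 2 regions lay within 1 kb of its inner start, 34.7 kb downstream. The stronger, at chr1:191182366-191182662 inside the gene, had 8.05-fold in LIF and 7.75-fold in RA. The one over the inner start itself, at chr1:191183113-191183689, had 5.67-fold in LIF and 4.45-fold in RA.

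The peaks at the starts of these genes had low fold enrichments for promoters in both states. The median fold enrichment over all promoters was 10.7 in LIF and 10.1 in RA, and each of the 9 genes stood below it in both lists. Jun had the highest value in LIF, 8.57, and Ier2 the lowest, with 3.80 in LIF and 3.52 in RA. Between them came Fosb and Egr2, both a little above 7 in LIF, and Myc with 4.99 in LIF and 5.58 in RA. In the LIF list the 9 genes ranked between the 0.815 and 30.9 percentile of promoters, and in the RA list between 0.532 and 28.0. These ranks are of fold over background, which did not order peaks as the −log10 p of the peak caller MACS2 did. In LIF, the Ier2 peak with 3.80-fold had a −log10 p of 13.0, and a region 55.7 kb upstream of Egr3 with 6.74-fold had 10.3.

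**Figure D2:**
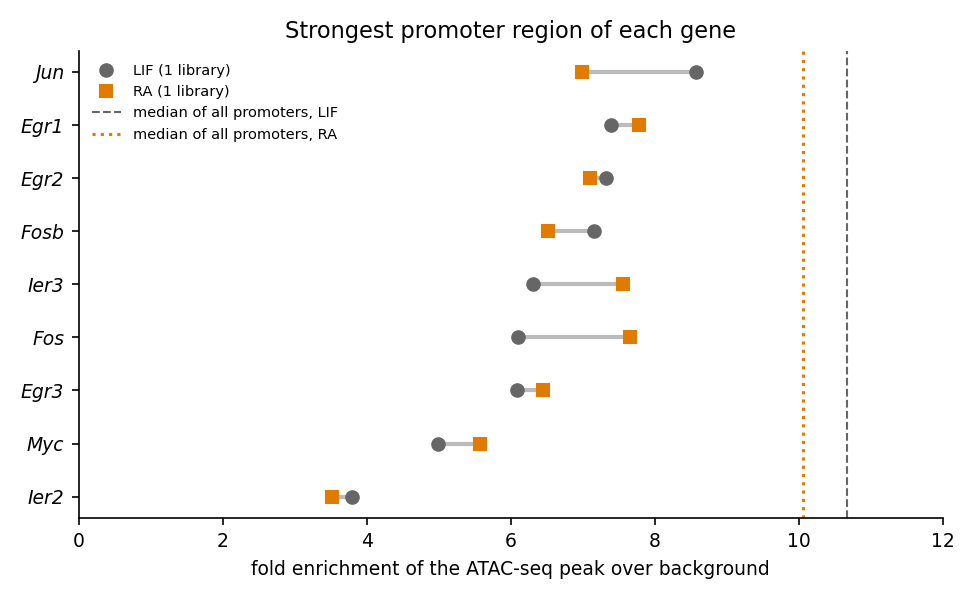
Fold enrichment of the strongest ATAC-seq region within 1 kb of the main start of 9 genes, in LIF (grey circles) and RA (orange squares), 1 library each, with the medians over all promoters as vertical lines. All 9 genes lie left of both medians, and Jun, Ier3 and Fos have the longest lines between the states.

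Changes between the states were small. The change is given as the log2 ratio of RA over LIF, less the median ratio of all regions shared by the lists (-0.09). Over 14404 promoters it had a median of 0.02 with a middle range of -0.13 to 0.16. The median over the 9 genes was 0.17, with 6 genes above 0 and 3 below, where 54.3% of all promoters were above 0. No gene passed 1.5-fold. That fold was passed upward by 1.37% of all promoters and downward by 1.28%.

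The strongest promoter region of a gene was the one with the highest fold enrichment in either list. By that region, the 2 genes of the RNA-seq table had the highest log2 changes. At the start of Fos, fold enrichment was 6.11 in LIF and 7.66 in RA, a log2 change of 0.42 or 1.34-fold. The upstream Fos region with the CArG box had 6.39 in LIF and 6.18 in RA, a log2 change of 0.05. In LIF this upstream region was the stronger of the 2, so the region at the start was chosen through its RA value. Ier3 had 6.31 in LIF and 7.56 in RA, a log2 change of 0.35 or 1.28-fold. Among all promoters the changes of 0.42 and 0.35 stood at percentiles 95.8 and 93.2. The direction depended on the window, since within 2 kb of the start another region was the strongest for both genes and its log2 change was negative. For Ier3 that other region lay at the start of Flot1, 75 bp from it, so the sign there is not that of the Ier3 peak. In the other settings both genes kept their sign.

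The other genes had log2 changes nearer to 0. Myc followed Ier3 with 0.25, and Egr3 had 6.09 in LIF and 6.45 in RA, a log2 change of 0.18. Egr2 had 7.32 in LIF and 7.10 in RA at the region with the paired sequence, a log2 change of 0.05, which turned negative without the subtraction of the median. The weaker Egr2 region farther upstream, with the single CArG box, had 3.35 in LIF and 4.47 in RA, a log2 change of 0.51. Ier2 (-0.02) and Fosb (-0.04) were close to 0. Among the genes with a peak at the main start, Jun had the lowest log2 change, -0.20, with 8.57 in LIF and 6.99 in RA. Near the inner start of Atf3, the stronger region had a log2 change of 0.04, and the weaker one over that start had -0.26. With 1 library per state, the spread that repeat cultures would give for such changes is unknown.

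**Figure D3:**
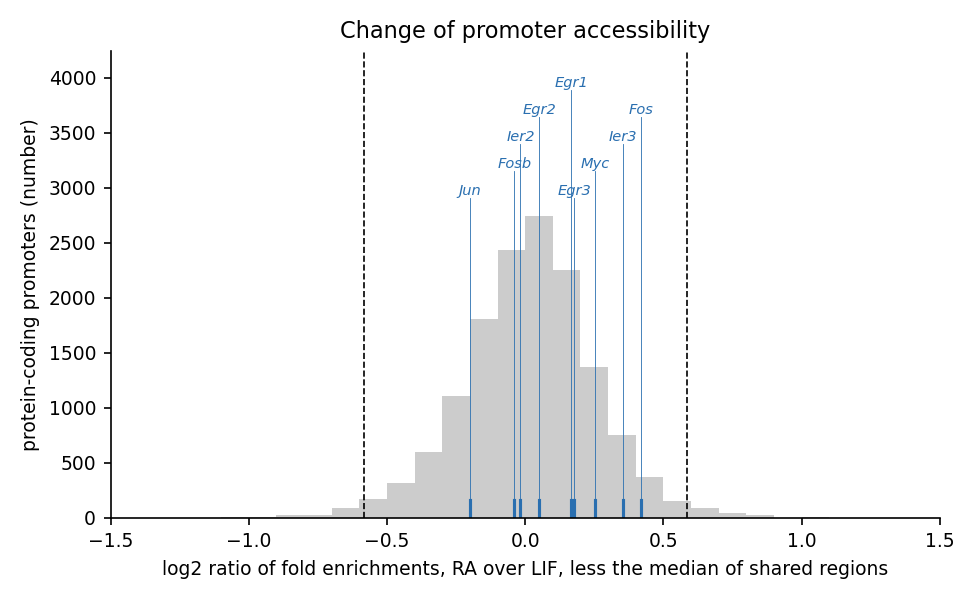
Distribution over 14404 protein-coding promoters of the log2 ratio of ATAC-seq fold enrichment, RA over LIF, less the median of shared regions, with 9 genes marked in blue and dashed lines at 1.5-fold. All 9 genes lie between the dashed lines, from Jun at -0.20 to Fos at 0.42.

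Egr1 differs in layout. Its main start at chr18:34859823 had a peak of low fold enrichment directly downstream, with 4.88 in LIF and 4.81 in RA. The stronger region ran from 580 to 1432 bp downstream, with 7.40 in LIF and 7.78 in RA, a log2 change of 0.17, and its summits lay 1306 and 1317 bp downstream. A second annotated start of Egr1 lies 1384 bp downstream of the main one, so these summits were just upstream of it. Within 1 kb of either start, Egr1 held 5 CArG boxes, all inside peaks of both lists. The one 83 bp upstream of the second start was followed by CGTCA at the 7-base spacing, as in Fos, Fosb, Egr2 and Egr3, so with this start counted all 5 genes with a CArG box held the pair. The starts beyond the main one were not searched in other genes. A palindromic STAT site, TTCCNGGAA, lay 174 bp upstream of the main start, outside the peaks, and it occurred in 6.24% of all promoters. An EGR site 783 bp downstream of the main start lay inside peaks of both lists, and another, 484 bp downstream of the second start, lay outside them.

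The same comparison for other genes of the pathway gave changes of like size. All 34 further immediate early genes had a promoter peak in both lists, with a median log2 change of 0.08 and a range of -0.30 to 0.29. Of the 34, 23 were above 0, where 54.3% of all promoters were. For the 18 upstream regulators the median was -0.03, with 8 above 0 and 10 below. None of these 52 promoters passed 1.5-fold, which 1.37% of all promoters passed upward and 1.28% downward. With 52 promoters, finding none is close to these shares. The largest changes were those of Mrtfa, a myocardin-related coactivator of SRF, with 5.62 in LIF and 7.11 in RA (0.43), and of Mapk3, which encodes ERK1, with 8.79 in LIF and 6.46 in RA (-0.35). They were followed by Ccn1, a secreted matrix protein gene and SRF target (-0.30), Plk3 (0.29) and Mrtfb, a paralog of Mrtfa (-0.28).

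Inside the bodies of the 10 genes, 30 regions were accessible, of which 26 were in both lists, 4 in the LIF list alone and none in the RA list alone. The 4 belonged to Fos, Egr2, Egr3 and Atf3. In Fos it lay 1.54 kb downstream of the start, over an intron, with a fold enrichment of 4.53. In Egr2 it lay about 1.0 kb downstream (3.78), and in Egr3 1.52 kb downstream (2.68), both over exons. The fourth was an intronic region of Atf3 23.8 kb downstream of its outer start (5.57). All 4 were below the median of the LIF list. Of all joined regions, 23.7% were in the LIF list alone and 11.0% in the RA list alone, and the gene bodies were counted after the regions were seen.

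Within 100 kb of the 10 genes, 372 accessible regions were found, of which 273 were shared. The LIF list alone held 68 of them, 18.3% (exact 95% binomial interval 14.5 to 22.6), and the RA list alone 31, 8.33% (5.73 to 11.6). These shares were lower than the 23.7% and 11.0% of all joined regions, and the intervals cover counting error only, since regions of 1 locus are not independent. Of the 273 shared regions, 5 were higher in RA by 1.5-fold (1.83%, against 4.05% of all shared regions) and 9 higher in LIF (3.30%, against 4.61%). None of these 4 shares was above that of the genome as a whole. Of the 158 regions whose nearest main start was that of the gene itself, 22.8% were in the LIF list alone (interval 16.5 to 30.1). The RA list alone held 6.96% of them. Of the 214 regions nearer to another gene's start, 15.0% were in the LIF list alone (10.5 to 20.4) and 9.35% in the RA list alone. The low LIF share of the 372 regions thus came mostly from regions nearer to other genes.

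**Figure D4:**
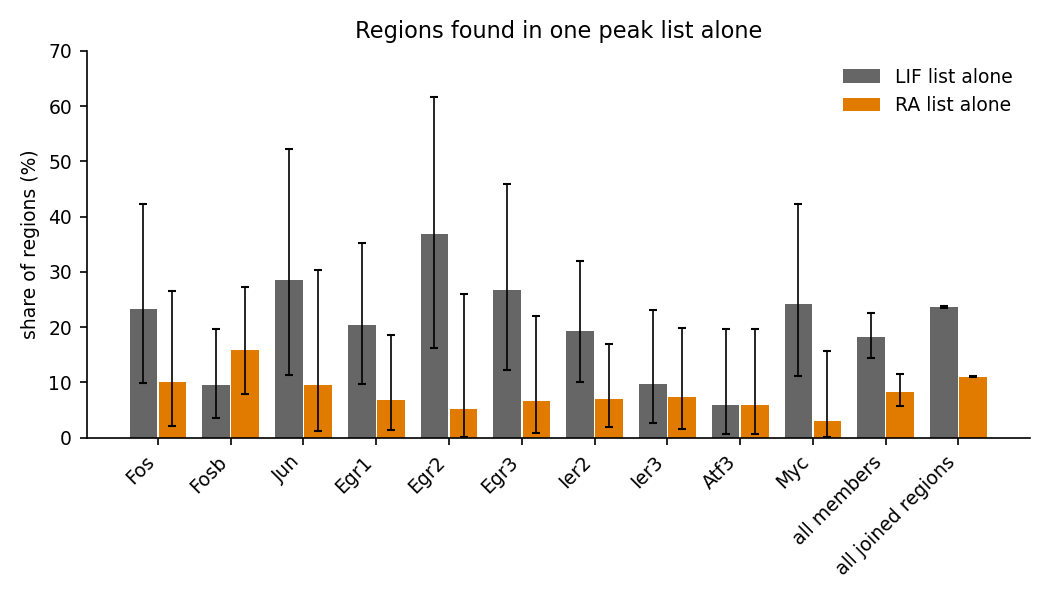
Share of accessible regions within 100 kb of each gene that were in the LIF list alone (grey) or the RA list alone (orange), with all 10 genes together and all joined regions at the right, where error bars are exact 95% binomial intervals over regions. The LIF bar is the taller one for 8 genes, the RA bar for Fosb, and both are equal for Atf3.

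The loci differed in density and in balance. Fosb had the most regions, 63, and Egr2 the fewest, 19. In 8 genes more regions were in the LIF list alone than in the RA list alone, as in the lists as a whole. As a difference of shares, the gap was widest for Egr2, with 7 LIF regions and 1 RA region of 19 (36.8% and 5.26%), followed by Myc, with 8 and 1 of 33 (24.2% and 3.03%). Fosb was the reverse, with 6 in LIF alone (9.52%, interval 3.58 to 19.6) and 10 in RA alone (15.9%, interval 7.88 to 27.3). Its RA interval includes the 11.0% of all regions, and its LIF interval lies below their 23.7%. The LIF intervals of Ier3 (9.76%, 2.72 to 23.1) and Atf3 (5.88%, 0.720 to 19.7) also lie below it, and those of the remaining genes include it. Only 158 of the 372 regions had one of the 10 genes as their nearest main start, from 6 of 41 at Ier3 to 33 of 33 at Myc, so 214 regions lay nearer to the start of another gene.

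**Figure D5:**
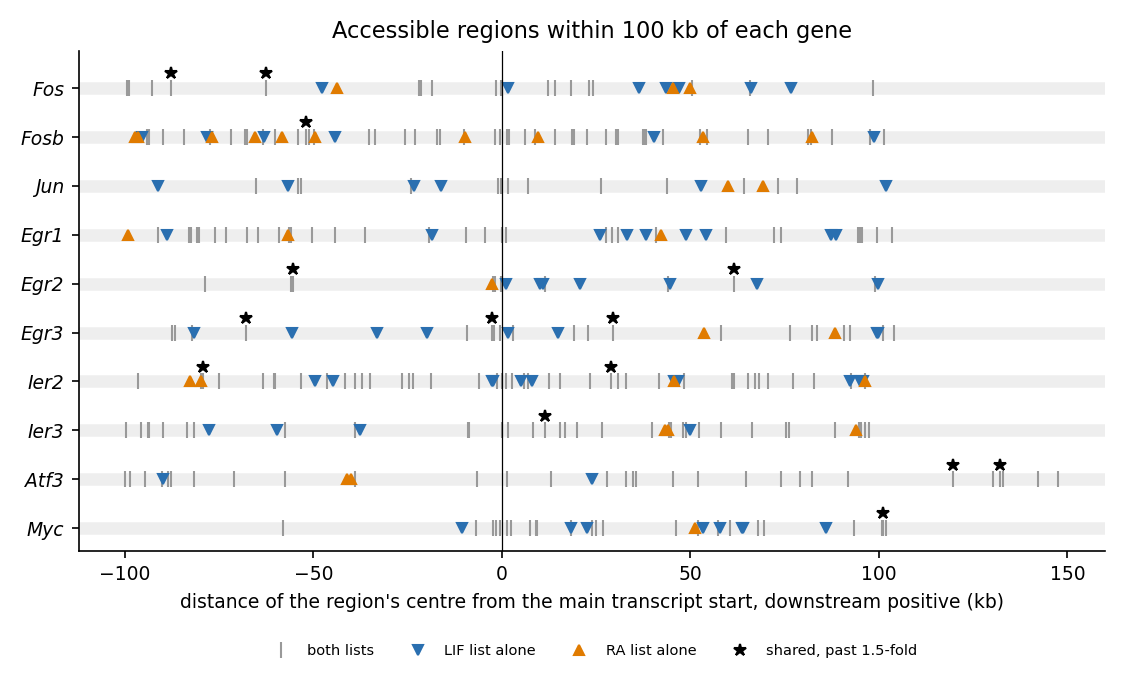
Accessible regions within 100 kb of each of the 10 genes, by the distance of their centre from the main transcript start in kb, with regions in both lists as grey ticks, in the LIF list alone as blue triangles and in the RA list alone as orange triangles. Black stars mark the 14 shared regions past 1.5-fold, of which 3 are near Egr3 and 2 each near Fos, Egr2, Ier2 and Atf3.

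The region with the largest change lay near Egr3. It lay 29.6 kb downstream of the Egr3 start in an intron of Bin3, whose start is 6.77 kb away. Its fold enrichment was 18.9 in LIF, at percentile 98.6 of that list, and 7.70 in RA, at percentile 63.4, a log2 change of -1.20 or 2.30-fold lower in RA. An AP-1 site occurred in 2 of the 19 summit windows, each of 300 bases, of regions that changed or stood out in 1 list, and in 6.89% of all regions. One of the 2 was in the window around the summit of the region 61.6 kb downstream of Egr2, at chr10:67599354-67599516, with the site outside the region itself. That region had 10.1 in LIF and 5.33 in RA, a log2 change of -0.83.

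Egr3 had 2 more shared regions past 1.5-fold. One lay 68.0 kb upstream in an intron of Pebp4, with 10.1 in LIF and 5.93 in RA (-0.68), and the other 2.7 kb upstream of Egr3, with 3.12 in LIF and 4.83 in RA (0.72). Egr2 had one in the direction of RA, 55.4 kb upstream, with 3.93 in LIF and 6.28 in RA (0.77), the highest log2 change of the 273 regions. All 5 regions higher in RA by 1.5-fold were low in the LIF list, between percentile 0.0086 (near Ier3) and 7.73 (near Egr2). The summit window of the Egr2 region held an E-box. E-boxes were present in 2 of the 19 windows and in 5.22% of all regions, the other at a region 79.4 kb upstream of Ier2 in an intron of Nfix (0.65). No CArG box was in any of the 19 windows, with 1.28% of all regions holding one.

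Near Fos, both regions past 1.5-fold were lower in RA. They lay 87.8 kb upstream, with 7.30 in LIF and 4.15 in RA (-0.72), and 62.6 kb upstream, with 7.86 and 4.74 (-0.64), and both had Tmed10 as the nearest gene. In the other direction, a region 43.6 kb upstream of Fos was in the RA list alone with a fold enrichment of 6.52, the only region of the RA list alone that reached the median of its list. In the LIF list alone, 4 regions reached that list's median, 3 near Egr3 and 1 near Jun, all 4 with the same value of 6.74. A region 29.0 kb downstream of Ier2, in an exon of the calcium channel gene Cacna1a, had 7.69 in LIF and 4.47 in RA (-0.69). The remaining shared regions past 1.5-fold lay near Fosb (1), Ier3 (1), Atf3 (2) and Myc (1), with log2 changes between -0.66 and 0.61.

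The enhancer predictions gave no region near these genes. CRUP assigns each region an enhancer probability from H3K4me1, H3K4me3 and H3K27ac, and the deposited list holds 327 regions that differed between the states, 186 higher in LIF and 141 higher in RA. None lay within 100 kb of any of the 10 genes. By the approximate rule of 3 for a level of 95%, 0 of 10 allows a share of up to about 30%. That rule is for a random sample, and these genes were chosen by name. A region of the list was present within 100 kb of 4.54% of protein-coding genes. At 200 kb the count was still 0, against 7.90% of protein-coding genes.

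The nearest of these regions lay 424 kb from Fosb, at chr7:19734201-19734900 in an intron of Nectin2, with an enhancer probability of 0.094 in LIF and 0.733 in RA. For Ier2 the gap was 484 kb, and the region, at the promoter of Nanos3, had 0 in LIF and 0.833 in RA. For Ier3 the gap was 744 kb, to a region with 0.912 in LIF and 0 in RA. The widest gap was that of Myc, 13764 kb. The median gap was 2227 kb, close to the 2432 kb over 21728 protein-coding genes. By the nearest region, 5 genes (Jun, Egr1, Egr3, Ier3 and Atf3) faced one higher in LIF and 5 one higher in RA.

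Checks of the cell labels used promoter peaks. All 8 markers of pluripotent cells, among them Nanog and Esrrb, had one in both lists, as did all 5 RA targets, but so did 4 of 4 primitive endoderm genes and 4 of 5 fibroblast genes. Promoter peaks therefore did not separate cell types here. In the RNA-seq table, 5 of 5 RA targets were listed, 3 of 8 markers of pluripotent cells, 1 of 4 primitive endoderm genes and 1 of 5 fibroblast genes, against 9.05% of all protein-coding genes.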

How the data were processed

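RNA-seq, ATAC-seq and the enhancer predictions of CRUP were used from E14 cells, while ChIP-seq of further marks (10 libraries) was left out. Per the file headers, the authors' RNA-seq table from DESeq2 gives a mean signal of normalized counts, of which the identifiers and this mean were read. Its columns of fold change, error, statistic, p-value and adjusted p-value, like the p-value and cluster of the enhancer list, are the authors' own comparisons and were not used, so how the listed genes were selected is not shown here. The mapper of the RNA reads is BWA-MEM in the paper, while the submitters' processing notes name STAR 2.5.1b. For ATAC-seq, reads were aligned by the authors (BWA-MEM, GRCm38), cleared of duplicates (SAMtools) and passed to MACS2 library by library, with parameters not given in the sources used here. The deposited lists hold a fold enrichment ratio and the −log10 of p and q. The authors' enhancer probability is a fraction. Depth is unknown for every library.

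Peaks sharing 1 bp were joined into regions, each with its highest fold enrichment per list, and log2 ratios were centred on the median of shared regions. Genes were those of GENCODE M21, with 2188 of 2189 listed identifiers matched, sequences came from RefSeq's GRCm38.p6, and 10 of 10 promoters compared with RefSeq's table were the same. Motifs were searched on both strands. The sequence of 1 region and the result of 1 gene are not reported here. The AP-1 search used TGANTCA with C or G at N, and the search for direct repeats was added after peaks were seen. All 10 genes are named, with the 5 largest promoter changes of the other pathway genes, the genes with the CArG pair, chosen after they were seen, and regions past 1.5-fold or above the median in 1 list. The genes and lists were chosen with earlier results of these data known. Alternatives were other windows, stricter peaks, other measures and, added after seeing the data, all annotated starts. No column was left unmapped (0). The functions were tested on simulated data. The scripts ran in Python 3.11.15, with pysam 0.24.0 for sequences, pandas 2.3.3 and NumPy 2.4.6 for tables, matplotlib 3.10.9 for figures and SciPy 1.17.1 for intervals.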

Additional observations from a re-analysis of the deposited data

How the results depend on the processing

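No paired analysis was possible because ATAC-seq and the enhancer predictions have 1 library per state and no RNA value per library was used, so no replicate could be left out either. Of 23 alternatives, 10 gave counts within 1.5 times the reported one and 6 gave counts beyond that. The other 7 concern the median log2 change, for which no replicate spread was available to set a shift against. The median log2 change over promoters was 0.17 as reported and became 0.073 within 500 bp, -0.13 within 2 kb, 0.16 for peaks with a −log10 q of at least 10, 0.073 without centring, 0.10 from −log10 p and 0.11 over all annotated starts, and it was 4.63 percentile points by rank within each list. Within 2 kb, Fos, Egr3, Ier2 and Ier3 changed sign because another region was then their strongest, which for Ier3 lay at the start of Flot1. Egr2 changed sign without centring and by rank. No gene passed 1.5-fold under any setting with a fold. Regions in the LIF list alone numbered 40 within 50 kb, 128 within 200 kb and 41 with the stricter peaks. Regions in the RA list alone numbered 16, 53 and 9. Their shares stayed below those of all regions in each of these settings. The number of promoters with a peak in both lists ranged from 6 among the top 50000 peaks to 10, and no dynamic region came within 50 or 200 kb.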
